A study of Mus musculus with 6 samples.

Results

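The MiT/TFE transcription factors and the lysosomal proteins that control them were followed in the skeletal muscle of mice that lack TFEB in muscle fibers. They are 8 genes, listed by name: the factors Tfeb, Tfe3, Mitf and Tfec, the GAP protein folliculin (Flcn), the Rag GTPases Rragc and Rragd, and the lysosomal calcium channel Mcoln1 (TRPML1). A probe set, the group of array probes summarised into 1 value, was kept when its annotation named 1 of these genes and no other. By this rule 7 of the 8 genes had a probe set, with 11 probe sets in all among the 22626 probe sets and 12393 genes tested. Tfe3, on the X chromosome (GRCm38.p6, chrX:7762530-7775202), had 0 probe sets by symbol or by accession and was not analysed here.

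The mice were of the C57BL/6 strain and 1 month old, and muscle RNA of 3 WT and 3 TFEB KO animals was hybridized to Affymetrix arrays, 1 array per animal. The TFEB KO mice carried floxed Tcfeb (the mouse gene now named Tfeb) and the MLC1f-Cre transgene, which is active in muscle fibers, so the other cells of the tissue keep the gene. The sources used here do not give which muscle was taken, the sex of the mice, or whether the WT mice carried a floxed allele or Cre. All values are log2 RMA values, in which each array has been background-corrected and normalized to the others, and a difference of 1 is a 2-fold difference. RMA values of different probe sets are not ordered here as amounts of transcript, because probes differ in how brightly they bind. All 10 markers of the muscle fiber were measured, at mean levels between 13.18 and 14.91. Limma called 0 of them at the adjusted p threshold of 0.05, with 0 below 0.05 before adjustment. The methods' t-test is the two-tailed test the study names for its data in general. It called 0 of the 10 after adjustment, and 2 were lower at its unadjusted p under 0.05, as were 1944 of all 22626 probe sets. After adjustment it called 0 higher and 1 lower of all 22626. A count of 0 by this test, here and below, therefore says little about a list. The correlation of whole arrays ran from 0.992 to 0.997 within the groups and from 0.989 to 0.993 between them.

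TFEB, TFE3, MITF and TFEC are basic helix-loop-helix leucine zipper factors that form homodimers and heterodimers with each other and bind E-boxes, among them the CLEAR element found near many genes of the lysosome. In fed cells the Rag GTPases, held on the lysosome by Ragulator, recruit TFEB and TFE3 to the lysosomal surface, where mTORC1 phosphorylates them and 14-3-3 proteins retain them in the cytosol. FLCN, with its FNIP partners, promotes GTP hydrolysis on RagC and RagD and so keeps this arm of mTORC1 active. On starvation, calcium released through TRPML1 activates calcineurin, which dephosphorylates TFEB and lets it enter the nucleus. Most of this control acts on proteins and their location, which arrays do not measure. The comparison asked whether the transcripts of the paralogs, or of the genes that control the factors, differ when Tfeb is deleted.

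Tfeb (GRCm38.p6, chr17:47737037-47792416) was read by 1 probe set, 1422566_at. Its log2 values were 8.61, 8.55 and 8.96 in WT replicates 1 to 3, and 7.10, 7.23 and 7.04 in TFEB KO replicates 1 to 3. Every TFEB KO array lay more than 1 log2 unit below every WT array, and WT replicate 3 was the brightest. The mean fell from 8.71 ± 0.22 to 7.12 ± 0.10 (SD, n = 3 each). The log2 fold change was -1.58 (95% interval -1.87 to -1.29, limma adjusted p = 0.0079), or 2.99-fold lower. The ranking of the Tfeb probe set among all probe sets moved from the 79.2nd percentile in WT to the 58.3rd in TFEB KO muscle. The ratio of TFEB KO to WT signal was 0.334. The sources used here do not say whether the probes match the floxed exons, so the signal that remained gives no estimate of the intact transcript that remained. In bulk tissue, fewer cells of a type and less RNA per cell cannot be told apart. The exact permutation test gave p = 0.10, the smallest value that 3 arrays against 3 allow. Tfeb was the only member probe set called lower, 1 of 11, where 0.844% of all probe sets were called lower. Of the 11, 0 were called higher by limma, where 0.751% of all probe sets were. By the methods' t-test after adjustment, 0 member probe sets were called, where 0 of all probe sets were called higher and 1 lower.

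**Figure D1:**
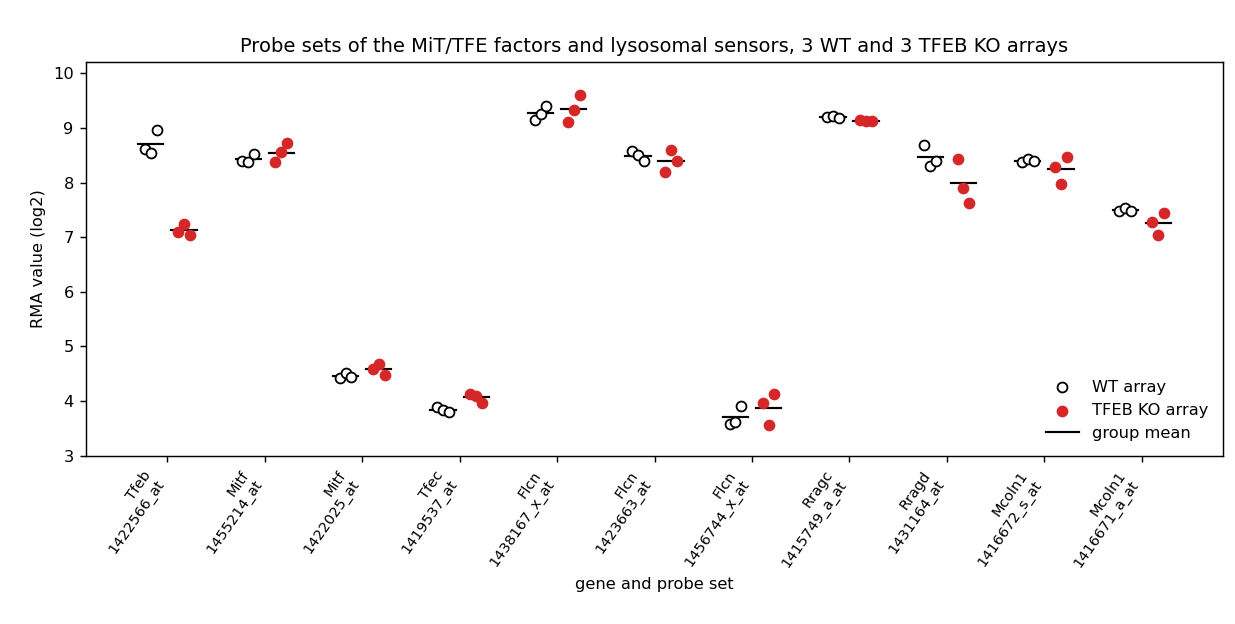
Log2 RMA value (vertical axis) of each of the 11 probe sets of the members (horizontal axis) in 3 WT arrays (open circles) and 3 TFEB KO arrays (filled circles), with bars at the group means. Tfeb lies at 8.55 to 8.96 in WT and 7.04 to 7.23 in TFEB KO arrays, while the groups of Mitf, Flcn and Rragd overlap.

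Neither measured paralog passed the test. Mitf, best known as the master factor of melanocytes and also active in osteoclasts and mast cells, was read by 2 probe sets (chr6:97807002-98021360). The brighter, 1455214_at, gave log2 values of 8.39, 8.38 and 8.52 in WT and 8.37, 8.55 and 8.72 in TFEB KO arrays. TFEB KO replicate 1 lay below all WT arrays and TFEB KO replicates 2 and 3 above them, so the groups overlapped. The difference was 0.11 (standard error 0.11, limma adjusted p = 0.66), and its 95% interval allowed ratios of TFEB KO to WT from 0.905 to 1.29. The dimmer, 1422025_at, read 4.43, 4.50 and 4.44 in WT and 4.58, 4.68 and 4.48 in TFEB KO arrays, with overlapping groups. Its difference was 0.12 (standard error 0.09, limma adjusted p = 0.55), with ratios up to 1.26 inside the interval. This probe set lies in the range of genes of other organs, given with Tfec in the next paragraph, so its ratio describes the signal and is no bound on the transcript. A rise in the signal of 1455214_at larger than 1.29-fold was outside its interval, and a smaller one was not detectable with 3 arrays a group.

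Tfec (chr6:16830927-16898464), the family member found mainly in macrophages and osteoclasts, was separated in rank between the groups but did not pass the test. On the log2 scale it read 3.88, 3.83 and 3.80 in WT and 4.13, 4.10 and 3.97 in TFEB KO muscle. All TFEB KO arrays were above all WT arrays. The difference was 0.23 (standard error 0.09, 95% interval 0.02 to 0.43), or 1.17-fold, with an unadjusted p of 0.034 and an adjusted p of 0.24 from limma. The exact permutation test gave p = 0.10. It was the only member probe set that was higher at an unadjusted p under 0.05, where 7.81% of all probe sets were, and the only one with higher, non-overlapping groups, where 9.77% of all probe sets had them. The Tfec probe set ranked at the 12.0th percentile in WT and the 15.8th in TFEB KO muscle. For scale, 19 genes of other organs (eye, pancreas, gonads and others) had group means between 2.96 and 6.05, with medians of 4.13 in WT and 4.01 in TFEB KO arrays, a range that holds Tfec in both groups. Fold changes this close to background are compressed on the RMA scale, so the upper bound of 1.35-fold describes the signal and is no bound on the transcript.

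**Figure D2:**
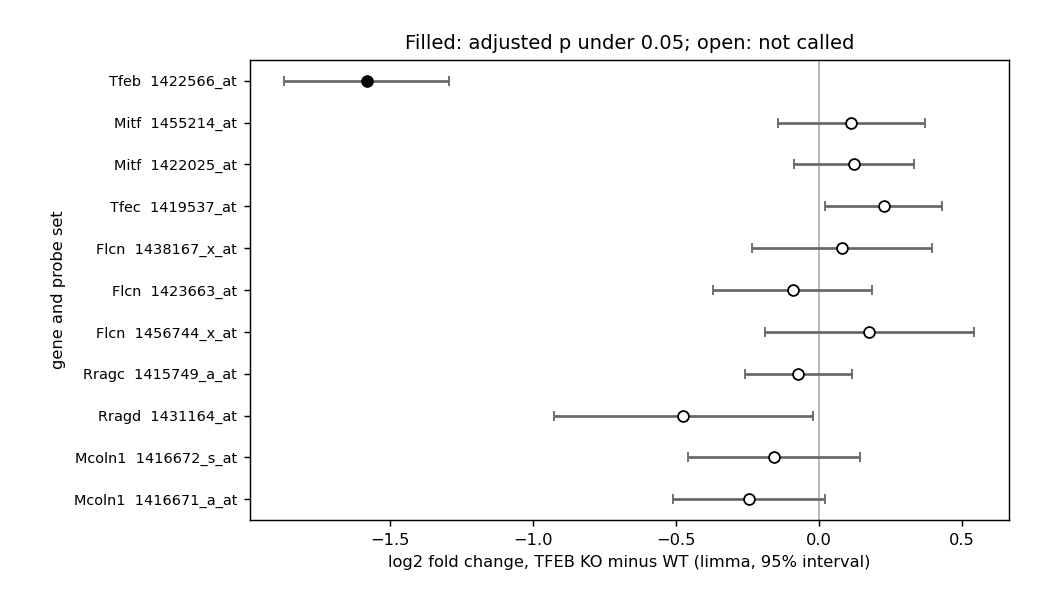
Log2 fold change, TFEB KO minus WT (horizontal axis), with the 95% interval from limma for each member probe set (vertical axis), from 3 arrays a group. The filled point is Tfeb at -1.58, and of the open points, which were not called, the intervals of Tfec (0.02 to 0.43) and Rragd (-0.93 to -0.02) do not include 0.

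Markers of cells that use these paralogs were measured on the same arrays. Of 25 macrophage markers, 10 were called higher and 0 lower, against 0.871% of all genes called higher and 0.702% called lower, and 24 of the 25 were above 0. None of the 25 passed the methods' t-test after adjustment, and 20 were higher at an unadjusted p under 0.05 from limma, where 8.49% of all genes were. Their median log2 fold change was 0.98, where the median of all genes was -0.014. The 4 called with the largest change were Lgals3 (galectin-3) at 2.09, Ctss (cathepsin S) at 2.07, Mpeg1 (perforin-2) at 1.75 and Lyz2 (lysozyme) at 1.45. The log2 of the summed signal of all 25 was 12.28, 12.06 and 11.53 in WT and 13.61, 12.97 and 12.95 in TFEB KO arrays. Within each group the arrays stood in the same order by this sum as by Tfec. With 3 arrays a group, and Tfec in the range of the genes of other organs, this order says little. The part of these cells in the Tfec values was not tested. The count of 10 fell in each fit with 1 array left out. It was 3, 2 and 3 without WT replicates 1, 2 and 3. Without TFEB KO replicates 1, 2 and 3 it was 6, 2 and 3. Over all probe sets, the 170 called higher became 17, 35 and 38 without those WT replicates. They became 235, 30 and 53 without those TFEB KO replicates. The median of the list stayed between 0.72 and 1.17 in these fits.

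Markers of the other cells that express MITF or TFEC had mean levels of 3.54 to 6.67 (mast cells), 3.70 to 5.32 (melanocytes) and 3.84 to 7.50 (osteoclasts), and 0 were called by limma or by the methods' t-test after adjustment. Of 8 mast cell markers, 2 were higher at an unadjusted p under 0.05, where 8.49% of all genes were. They were Cpa3 (carboxypeptidase A3) by 0.59 (adjusted p = 0.27) and Fcer1a (a chain of the IgE receptor) by 0.36 (adjusted p = 0.14, limma). Fcer1a, with means of 3.37 in WT and 3.72 in TFEB KO arrays, lay within the range of the genes of other organs. The median over the 8 was 0.19, and their log2 summed signal was 8.68, 8.20 and 8.25 in WT and 9.08, 8.59 and 8.49 in TFEB KO arrays. The 4 measured melanocyte markers of 5 had a median of -0.02, with Dct at -0.05 and Pmel at -0.04, and 0 reached an unadjusted p under 0.05. Their log2 summed signal was 6.68 to 6.78 in WT and 6.55 to 6.80 in TFEB KO arrays. Of 7 osteoclast markers 5 were measured, 3 above 0 and 2 below, with a median of 0.012. Calcr (the calcitonin receptor) at -0.26 and Oscar at -0.19 had the smallest p, and the other probe set of Oscar was at 0.24. Only Calcr of these 5 reached an unadjusted p under 0.05, where 8.66% of all genes were lower. The log2 summed signal of the 5 was 8.15 to 8.50 in WT and 8.22 to 9.12 in TFEB KO arrays. Calcr, Oscar, Dct and Pmel had group means within the range of the genes of other organs, so their differences describe the signal only. The part of mast cells, melanocytes and osteoclasts in the Mitf and Tfec values was not tested. Markers of endothelial cells, another part of the tissue that keeps Tfeb, had the opposite sign to those of macrophages. Of 8 endothelial markers 4 were called lower and 0 higher, Kdr (VEGF receptor 2) at -0.89, Vwf at -0.86, Pecam1 at -0.82 and Esam at -0.57, where 0.702% of all genes were called lower and 0.871% higher. The median of the list was -0.64, and none of the 8 passed the methods' t-test after adjustment. Their log2 summed signal was 11.07, 11.17 and 10.93 in WT and 10.38, 10.59 and 10.63 in TFEB KO arrays. The count of 4 became 0, 0 and 2 without WT replicates 1, 2 and 3. Without TFEB KO replicates 1, 2 and 3 it became 2, 0 and 2. Over all probe sets, the 191 called lower became 4, 25 and 42 without those WT replicates. They became 203, 14 and 40 without those TFEB KO replicates. The median of the endothelial list stayed between -0.68 and -0.56 in these fits. What share endothelial Tfeb had in the fall of Tfeb was not tested.

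**Figure D3:**
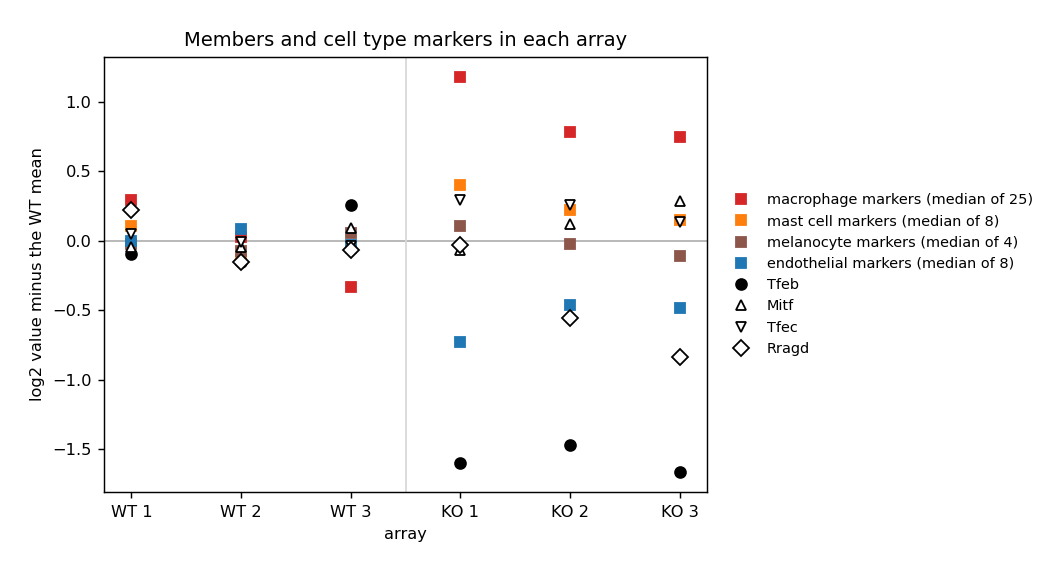
Difference from the WT mean on the log2 scale (vertical axis) in each of the 6 arrays (horizontal axis), for Tfeb, Mitf, Tfec and Rragd by their brightest probe set and for the median of 4 lists of cell type markers. The macrophage medians lie at 0.74 to 1.18 and the endothelial medians at -0.73 to -0.46 in the TFEB KO arrays, while Mitf stays between -0.07 and 0.29.

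Folliculin (Flcn, chr11:59791408-59810039) was read by 3 probe sets, and the groups overlapped in each. Probe set 1438167_x_at gave 9.14, 9.25 and 9.40 in WT and 9.11, 9.33 and 9.60 in TFEB KO arrays. Probe set 1423663_at gave 8.57, 8.50 and 8.39 in WT and 8.19, 8.60 and 8.40 in TFEB KO arrays. In the first, TFEB KO replicate 1 was the dimmest and replicate 3 the brightest array, and in the second TFEB KO replicate 1 was the dimmest and replicate 2 the brightest. The differences were 0.08 (95% interval -0.23 to 0.39, adjusted p = 0.82) and -0.09 (95% interval -0.37 to 0.19, adjusted p = 0.76, limma). The sign of the first turned to -0.04 without TFEB KO replicate 3, and that of the second to 0.01 without TFEB KO replicate 1. The third, 1456744_x_at, averaged 3.70 in WT and 3.88 in TFEB KO arrays, within the range of the genes of other organs, and differed by 0.18 (adjusted p = 0.63, limma). The suffix _x_at marks probes that may also bind other transcripts.

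The Rag GTPases RagC and RagD each pair with RagA or RagB and carry the nutrient signal that FLCN acts on. Rragc (chr4:123917433-123936997) read 9.20, 9.21 and 9.19 in WT and 9.14, 9.13 and 9.12 in TFEB KO arrays. The groups did not overlap and each was tight, with SDs of 0.012 and 0.0073. The difference was -0.07 (standard error 0.08, 95% interval -0.26 to 0.12, limma adjusted p = 0.71), since limma widens a spread this small toward that of other probe sets. In contrast, the methods' t-test, which uses each probe set's own spread, gave an unadjusted p of 8.8e-04 and did not pass after adjustment.

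Rragd (chr4:32982998-33022180), itself described as a target of MiT/TFE factors, had the largest fitted difference among the members other than Tfeb. It read 8.68, 8.31 and 8.40 in WT and 8.43, 7.91 and 7.63 in TFEB KO muscle. TFEB KO replicates 2 and 3 were below all WT arrays, and TFEB KO replicate 1 was within the WT range. The difference was -0.47 (standard error 0.20, 95% interval -0.93 to -0.02), or 1.39-fold, with an unadjusted p of 0.042 and an adjusted p of 0.27 from limma. Its exact permutation p was 0.30. The value was -0.70 without TFEB KO replicate 1 (adjusted p = 0.063) and -0.29 without TFEB KO replicate 3 (adjusted p = 0.54), and it was not called in either fit. With Tfeb, Rragd made 2 member probe sets lower at an unadjusted p under 0.05, where 9.4% of all probe sets were.

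Mcoln1 (chr8:3500519-3515232), which encodes the channel that releases lysosomal calcium, was read by 2 probe sets. Probe set 1416672_s_at gave 8.38, 8.43 and 8.40 in WT and 8.29, 7.97 and 8.48 in TFEB KO arrays, and 1416671_a_at gave 7.47, 7.54 and 7.47 in WT and 7.27, 7.03 and 7.44 in TFEB KO arrays. In both, TFEB KO replicate 2 was the dimmest array and TFEB KO replicate 3 the closest to WT, and the groups overlapped only in the first. The differences were -0.16 (95% interval -0.46 to 0.15, adjusted p = 0.60) and -0.24 (95% interval -0.51 to 0.02, adjusted p = 0.34, limma). Without TFEB KO replicate 2 the first was -0.02 and the second -0.14 (adjusted p = 0.56, limma). Tfeb, Rragc and this second probe set of Mcoln1 were the 3 member probe sets with lower, non-overlapping groups, where 13.3% of all probe sets had them. Without Tfeb, 0 of 10 member probe sets were called by limma, and 0 passed the methods' t-test after adjustment. Of the 10, 2 reached an unadjusted p under 0.05, Tfec higher and Rragd lower, where 7.81% of all probe sets were higher and 9.4% lower.

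The promoters of the members were read for the CLEAR core, TCACGTGA, and for the E-box inside it, CACGTG, since these are the letters that TFEB, TFE3 and MITF recognize. Both are palindromes, so a match counts for both strands. RefSeq windows of GRCm38.p6, each 300 bases long from 250 before to 50 after a transcription start, were given for 8 of 8 members. The CLEAR core was in 0.974% of all 32851 windows (320) and the E-box in 7.15% (2349). Among the members, the window of Mcoln1 held a CLEAR core that begins 46 bases before the start and a separate E-box 71 bases before it, and that of Rragc held an E-box 112 bases before the start. The windows of the other 6 members held neither. A window of Rcan1, a gene given further on that is not a member, is also shown. Its CLEAR core begins 192 bases before the more upstream of the 2 starts of Rcan1. The window of the other start, not shown, held neither motif. Which start the probe sets of Rcan1 read was not examined. The 3 windows are printed 5′ to 3′ along the gene's strand, with the CLEAR core or the E-box in capitals.
Mcoln1, chr8:3500269-3500568, + strand: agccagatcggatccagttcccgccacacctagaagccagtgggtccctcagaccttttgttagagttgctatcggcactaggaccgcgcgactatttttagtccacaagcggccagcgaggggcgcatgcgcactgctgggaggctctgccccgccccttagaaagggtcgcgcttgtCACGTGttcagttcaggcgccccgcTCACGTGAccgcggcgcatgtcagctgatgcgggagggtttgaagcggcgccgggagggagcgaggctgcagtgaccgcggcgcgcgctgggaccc
Rragc, chr4:123917183-123917482, + strand: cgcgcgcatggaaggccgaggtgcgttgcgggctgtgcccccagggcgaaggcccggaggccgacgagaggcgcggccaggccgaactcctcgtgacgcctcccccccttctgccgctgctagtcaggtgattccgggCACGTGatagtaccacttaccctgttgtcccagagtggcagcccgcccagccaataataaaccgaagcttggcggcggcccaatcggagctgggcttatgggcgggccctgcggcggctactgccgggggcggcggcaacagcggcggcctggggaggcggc
Rcan1, chr16:92466120-92466419, - strand: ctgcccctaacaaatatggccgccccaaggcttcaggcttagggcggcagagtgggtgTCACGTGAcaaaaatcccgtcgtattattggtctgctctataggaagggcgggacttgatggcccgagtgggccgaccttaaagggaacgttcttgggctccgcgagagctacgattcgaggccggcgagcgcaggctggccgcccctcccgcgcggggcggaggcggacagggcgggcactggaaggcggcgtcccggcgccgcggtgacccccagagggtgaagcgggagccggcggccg
A match is a string of letters in the window and not a measured site of binding. Of 174 measured genes with a CLEAR core in a window, limma called 2 higher, Rcan1 and Ppp1r3c (a glycogen-targeting subunit of protein phosphatase 1, 0.65, adjusted p = 0.036), and 0 lower, with a median log2 fold change of 0.0017. The 2 are 1.15% of the 174, near the 0.871% of all genes called higher. Of 1069 measured genes with an E-box, 11 were called higher (1.03%) and 1 lower (0.0935%), with a median of -0.012, where 0.871% of all genes were called higher and 0.702% lower. The shares of all genes also cover genes without a window, since 9887 of the 12393 genes measured had one. The difference of the motif shares from those of all genes was not tested.

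The genes that work with the members were counted from lists drawn up by role, each gene by its brightest probe set. Of 8 genes of RagA, RagB, Ragulator and the arginine sensor SLC38A9, 6 were measured and 0 were called (limma, 0 at an unadjusted p under 0.05, 0 by the methods' t-test after adjustment). Their median was 0.04, with Rraga at -0.31 (adjusted p = 0.41) and Lamtor5, a subunit of Ragulator, at 0.10 (adjusted p = 0.65, limma). The other probe set of Lamtor5 was at 0.45 and was not called. Of 20 partners of FLCN and upstream regulators of the Rags, 12 were measured, 0 were called by limma or, after adjustment, by the methods' t-test, and 2 were higher and 1 lower at an unadjusted p under 0.05. Across all genes 8.49% were higher and 8.66% lower at that level. Sesn1 (sestrin 1, a leucine-sensing inhibitor of mTORC1) had a difference of 0.63 (adjusted p = 0.097) and Kptn, a subunit of the KICSTOR scaffold, one of -0.32 (adjusted p = 0.13, limma). Sesn1 was called higher with array weights (0.70, adjusted p = 0.044) and without TFEB KO replicate 1 (0.82, adjusted p = 0.018, limma).

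Nor did the enzyme complex that phosphorylates TFEB pass the test. Of 12 genes of mTORC1 and its activator Rheb, 8 were measured with a median of -0.04, and 0 were called by limma or, after adjustment, by the methods' t-test. At an unadjusted p under 0.05 there were 2 higher and 1 lower, where 8.49% and 8.66% of all genes were. The smallest p belonged to Tsc2, a subunit of the complex that inhibits Rheb, at -0.38 (adjusted p = 0.19), and to Rhebl1, a homolog of Rheb, at 0.40 (adjusted p = 0.21). All 7 of the 14-3-3 genes were measured, with a median of 0.08, and 0 were called by limma or, after adjustment, by the methods' t-test and 0 reached an unadjusted p under 0.05. Ywhag at 0.17 and Ywhae at 0.12 had the smallest p (adjusted p = 0.62 for both, limma). The 2 other probe sets of Ywhag were at -0.98 (adjusted p = 0.15, limma) and -0.04, so its probe sets disagree in sign.

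In the list of calcineurin and other enzymes that act on TFEB, 10 of 13 genes were measured. Of these, 1 was called higher and 0 lower, where 0.871% and 0.702% of all genes were. The called gene was Rcan1, a regulator that binds calcineurin and inhibits it. Its log2 values were 10.15, 10.58 and 10.51 in WT and 11.50, 11.40 and 11.54 in TFEB KO arrays, with no overlap. Rcan1 rose by 1.06 (standard error 0.13, limma adjusted p = 0.015), and its other probe set, which was also called, rose by 0.85. The call was lost without TFEB KO replicate 2 (adjusted p = 0.052) and with the methods' t-test (adjusted p = 0.15). The median of the list was 0.04, and 3 of its genes were higher and 0 lower at an unadjusted p under 0.05, where 8.49% and 8.66% of all genes were.

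Of the 6 other lysosomal calcium and cation channels, all were measured and 0 were called by limma or, after adjustment, by the methods' t-test. Tpcn1, a 2-pore channel, had a difference of -0.38 (adjusted p = 0.090) and Tmem175, a lysosomal potassium channel, one of -0.26 (adjusted p = 0.27, limma). These 2 were lower at an unadjusted p under 0.05, where 8.66% of all genes were. The median of these channels was -0.08. The probe sets of the Mcoln1 homologs Mcoln2 and Mcoln3 had means of 4.42 to 4.70, within the range of the genes of other organs, and their differences are not read here.

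Among 37 known target genes of MiT/TFE factors in lysosome and autophagy, 33 were measured, 1 was called higher and 0 lower, with a median of 0.05, where 0.871% of all genes were called higher and 0.702% lower. At an unadjusted p under 0.05, 5 were higher and 2 lower, where 8.49% and 8.66% of all genes were. The called gene was Gpnmb, a glycoprotein of macrophages and melanocytes that responds to MITF and TFE3. It read 6.52, 6.17 and 6.19 in WT and 7.84, 7.30 and 7.42 in TFEB KO arrays. All TFEB KO arrays were higher than all WT arrays, and Gpnmb rose by 1.22 (standard error 0.16, limma adjusted p = 0.017). The call was lost without WT replicates 1, 2 and 3 in turn (adjusted p = 0.051, 0.068 and 0.065) and with the methods' t-test (adjusted p = 0.18). The difference of Gpnmb stayed between 1.06 and 1.34 as single arrays were left out. Over all probe sets, the 170 called higher fell to 17, 35 and 38 without those WT replicates. Other calls of this list also changed in fits without 1 array. With all arrays Atp6v1h, a subunit of the lysosomal proton pump, was at 0.45 and not called (limma adjusted p = 0.099). Without TFEB KO replicate 1 it was called (0.56, limma adjusted p = 0.046). Ppargc1a, a coactivator of mitochondrial genes, was at -0.49 with all arrays and not called (limma adjusted p = 0.24). Without TFEB KO replicate 3 it was called (-0.73, limma adjusted p = 0.042). Macrophage markers were also higher in the TFEB KO arrays, as given above with their summed signal. Within each group, replicates 2 and 3 stood in the opposite order by that sum and by Gpnmb. The part of macrophages in the Gpnmb values was not tested.

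**Figure D4:**
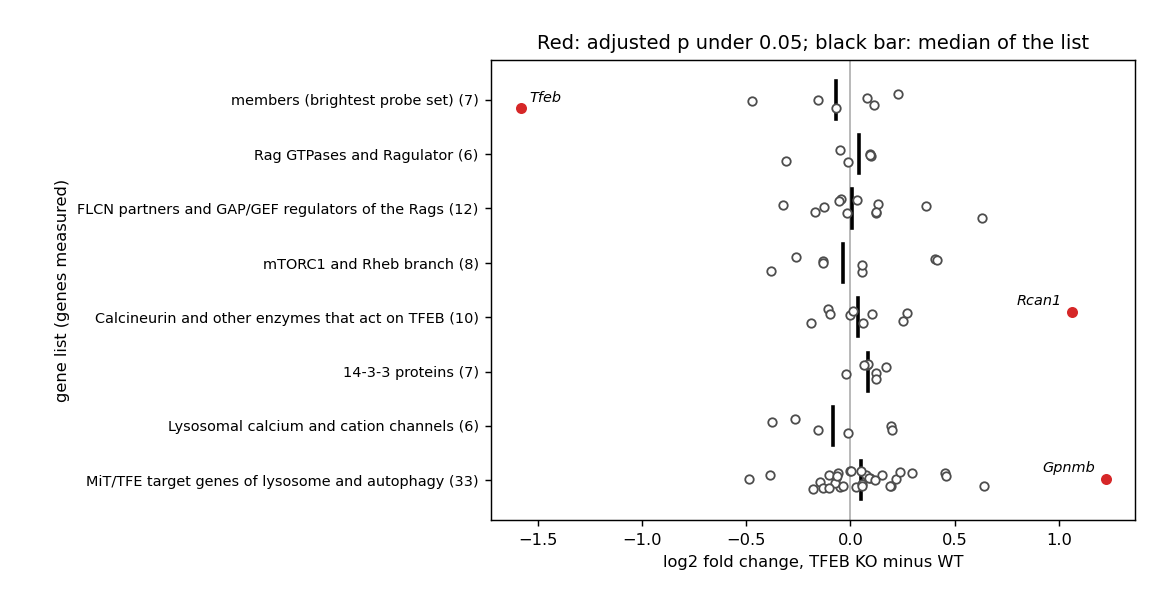
Log2 fold change, TFEB KO minus WT (horizontal axis), of the members and of the genes in 7 lists of the pathway (vertical axis), with 1 point per gene by its brightest probe set and a bar at each median. The 3 filled points are Tfeb at -1.58, Rcan1 at 1.06 and Gpnmb at 1.22, and the medians of the 7 lists lie between -0.08 and 0.08.

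The genes most like each factor over the 6 arrays, by Pearson r among genes whose brightest probe set is above the median level of all probe sets, are given as a description. For Tfeb they were Prepl (r = 0.997), Snrk (0.994) and Galt (0.993), with differences of -0.68, -0.55 and -0.42. For Tfec they were Slc9a3r1 (r = 0.998), Rpl41 and Rpp30, and the first of these had a difference of 0.52 and an adjusted p of 0.072 from limma. For Mitf they were Pnrc1, Hnrnpa1 and Ccdc115, and for Flcn they were Norad, Nfx1 and Ncbp2, and 0 of these 6 were called by limma. With 6 arrays in 2 groups, a gene that separates the groups as Tfeb does has a high r by that alone.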

How the data were processed

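Transcripts were measured in muscle with Affymetrix arrays, 1 for each of 3 WT and 3 TFEB KO mice, which the labels name as biological replicates. The deposited values are log2 signals that the authors computed for each probe set with RMA, and the submitters' processing notes name the R package affy. Their version and parameters were not given in the sources used here. Since RMA forces the arrays onto 1 distribution, it would hide most of a shift common to all genes. Arrays give no depth, and their number limits the precision.

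Of 22690 probe sets, the 64 control probe sets of the manufacturer were removed, and the remaining 22626 entered limma 3.58.1 (lmFit and eBayes, two-sided, no covariates) in R 4.3.3, with Benjamini-Hochberg adjustment over all of them and an adjusted p threshold of 0.05. Standard errors and 95% intervals are those of limma. An exact permutation test of 3 arrays against 3 cannot go below p = 0.10. The methods' t-test is Student's two-tailed t-test, which the study names beside ANOVA for its data in general, run here on the same values and arrays. The sources used here name no test for the study's own array calls, so the methods' t-test is not a repeat of them. The platform annotation gave the gene names; 20380 probe sets had 1 gene symbol, 691 several and 1555 none; 20351 of the 20380 were matched to RefSeq genes. Promoter windows and gene positions are those of RefSeq on GRCm38.p6.

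The text names all members with all their probe sets, and of each list the called genes (the 4 with the largest change where more were called) or, where 0 were called, the 2 with the smallest p, plus the 3 genes most like each factor. Mcoln2, Mcoln3, Ppp1r3c, Atp6v1h and Ppargc1a are outside this rule and were picked with their values known. The promoter window of Rcan1 was also picked with the values of Rcan1 known. The members and lists were chosen with earlier results of these data known, so no list is adjusted on its own or tested as a set. Each gene of a list is represented by the probe set with the highest mean over all 6 arrays.

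The other settings were a second quantile normalization, a filter on dim probe sets (mean log2 below 5.77, the 40th percentile), a shift that equalised the 75th percentile of the arrays, array weights, moderation that was trended and robust, a block for the replicate number, the methods' t-test with and without adjustment, the control probe sets included, 1 array removed at a time, and genes as the mean of their probe sets. The fit was checked on simulated data. Tables and figures were made with matplotlib 3.10.9, NumPy 2.4.6 and pandas 2.3.3 in Python 3.11.15.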

Additional observations from a re-analysis of the deposited data

How the results depend on the processing

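Tfeb stayed lower under every setting tried, from -1.66 to -1.46 (log2) as single arrays were left out, with limma's adjusted p between 0.0065 and 0.038. It lost its call with the methods' t-test after adjustment (-1.58, adjusted p = 0.13), which left 0 member probe sets lower. Without adjustment the methods' t-test put Tfec past the threshold (0.23, unadjusted p of 0.014, against an exact permutation p of 0.10). It gave 1 member probe set of 11 higher and 2 lower, the second being Rragc, where 1338 and 1944 of all 22626 probe sets were. Tfec ranged from 0.20 to 0.28 as arrays were left out and was called in none of these fits. The sign of Flcn turned in 2 fits, to -0.044 (1438167_x_at) without TFEB KO replicate 3 and to 0.012 (1423663_at) without TFEB KO replicate 1, and leaving out single arrays gave -0.044 to 0.20 for the first and -0.19 to 0.012 for the second. In every other member probe set, among them 1455214_at of Mitf (0.03 to 0.20) and Rragd (-0.70 to -0.29), the sign held over all settings. The cause of these shifts was not tested. Tfec, 1422025_at of Mitf and 1456744_x_at of Flcn lay below the level for dim probe sets and were not in that fit.

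Across all probe sets, 170 were called higher and 191 lower. These counts were 17 and 4 without WT replicate 1, 35 and 25 without WT replicate 2, 38 and 42 without WT replicate 3, 235 and 203 without TFEB KO replicate 1, 30 and 14 without TFEB KO replicate 2, and 53 and 40 without TFEB KO replicate 3. They were 241 and 296 with array weights, 0 and 1 by the adjusted p of the methods' t-test, and 1338 and 1944 by its unadjusted p. By gene, 108 were higher and 87 lower with the brightest probe set, and averaging a gene's probe sets gave 124 and 139. With the replicate number as a block, 173 were higher and 124 lower, and Tfeb was at -1.58 (limma adjusted p = 0.015) with no other member called. The deviations of arrays with the same number from their group means had r = 0.088, 0.048 and 0.265 over probe sets, for replicates 1 to 3. Whether arrays with the same number share a batch or a pairing was not tested.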
